A study of Mus musculus with 48 samples.

Results

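The liver mRNAs of 9 genes of glucose and glycogen metabolism were followed through the day in mice that lack the clock activator Bmal1 in adipocytes and in WT mice. The genes were taken by symbol from a table of 22354 genes: the glucose transporter gene Slc2a2, the regulatory protein gene Gckr, the glycolytic genes Pfkfb1, Pfkfb3 and Pklr, the glycogen synthase Gys2, the glycogen phosphorylase Pygl, and Ppp1r3b and Ppp1r3c, which encode glycogen-targeting subunits of protein phosphatase 1. Each symbol was found once, and all 9 genes had enough counts to be among the 13646 genes tested.

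Livers came from female C57BL/6J mice, 23 labelled KO (knockout of Bmal1, gene symbol Arntl, in adipocytes) and 25 labelled WT. All had been kept in a cycle of 12 h light and 12 h dark, spent 1 day in constant darkness and had no food for 24 h, so that every group was fasted. Tissue was collected at zeitgeber times (ZT, by convention hours after lights on) 0, 4, 8, 12, 16 and 20, with 4 KO and 4 WT mice at each time except ZT16, which had 3 KO and 5 WT mice. Mice were 28.75 to 105 weeks old, and their weight had a median of 24.5 g in KO and 21.7 g in WT mice. Each mouse gave 1 time, and age and weight also differed between times. Mice were 58.5 to 73.75 weeks old at ZT4 and 28.75 to 62.5 weeks old at ZT20. KO mice weighed 23.6 to 27.2 g at ZT4 and 19.1 to 21.9 g at ZT20, and WT mice 22.2 to 25.7 g and 18.7 to 22 g. By the labels the deletion was in adipocytes and not in the liver measured here, and they do not give the driver of the deletion.

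After a meal the liver takes up glucose and stores it as glycogen, and during a fast it breaks glycogen down and releases glucose. Glycogen synthase and glycogen phosphorylase are switched in opposite directions by phosphorylation, and the targeting subunits bring protein phosphatase 1 to glycogen, where it turns the synthase on and the phosphorylase off. In liver many of these genes are known to follow the time of day, through the clock within hepatocytes and through feeding.

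Each library held 12.8e6 to 13.0e6 counts without Alb, and replicate livers had correlations across genes of 0.835 to 0.986, where genes are not independent replicates. The slope of abundance on the GC content of genes ran from -1.03 to 0.375 (log2 per 10 points of GC) in KO libraries, with a median of -0.344, and from -0.881 to 0.347 in WT libraries, with a median of -0.173. All 9 hepatocyte markers had counts in every library, and their sum ranged from 17180 to 59860 CPM (counts scaled to a common library size) in KO and from 24010 to 52070 CPM in WT livers. The 6 adipocyte markers summed to 1.43 to 76.8 CPM in KO and 1.92 to 42.2 CPM in WT livers, and 1 of them had counts in every library. Arntl itself lay between 1.58 and 37.04 CPM in KO livers and between 0.819 and 43.8 CPM in WT livers, with the highest group means at ZT0 and ZT20 in both genotypes. Its rhythm passed the test in KO (adjusted p = 7.92e-07) and in WT livers (adjusted p = 4.22e-09 by edgeR's quasi-likelihood test, adjusted by Benjamini-Hochberg), and its difference over all times did not (log2 0.30, SE 0.16, adjusted p = 0.347). Its interaction of genotype with time (edgeR unadjusted p = 0.000529, adjusted p = 0.509) and its rhythm difference (edgeR unadjusted p = 0.00276) did not pass after adjustment. Arntl averaged 9.54 CPM in KO and 21.1 CPM in WT livers at ZT4, and 26.3 and 16.2 CPM at ZT16. The ranges of the genotypes overlapped at both times.

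Most of the 9 mRNAs varied with the time of collection, and they did so in KO and in WT livers. The cosine used allows only 1 rise and 1 fall in 24 h. A 24 h cosine passed the test for 6 of 9 genes in KO livers (Slc2a2, Gckr, Pfkfb3, Gys2, Ppp1r3b and Ppp1r3c) and for 7 of 9 in WT livers (the same 6 and Pfkfb1; edgeR's quasi-likelihood test, Benjamini-Hochberg adjusted p under 0.05). Over all genes tested the cosine passed for 17% in KO and 16.3% in WT livers. Pklr and Pygl did not pass in either genotype. No gene of the 9 passed the test of a difference in rhythm between the genotypes (adjusted p of 1 for each, edgeR; background 0.00733%, 1 gene of 13646). Ppp1r3c alone of the 9 came under an unadjusted p of 0.05 in that test, where 363 of all 13646 genes tested did. In bulk liver, fewer cells of a type and less RNA per cell cannot be told apart.

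**Figure D1:**
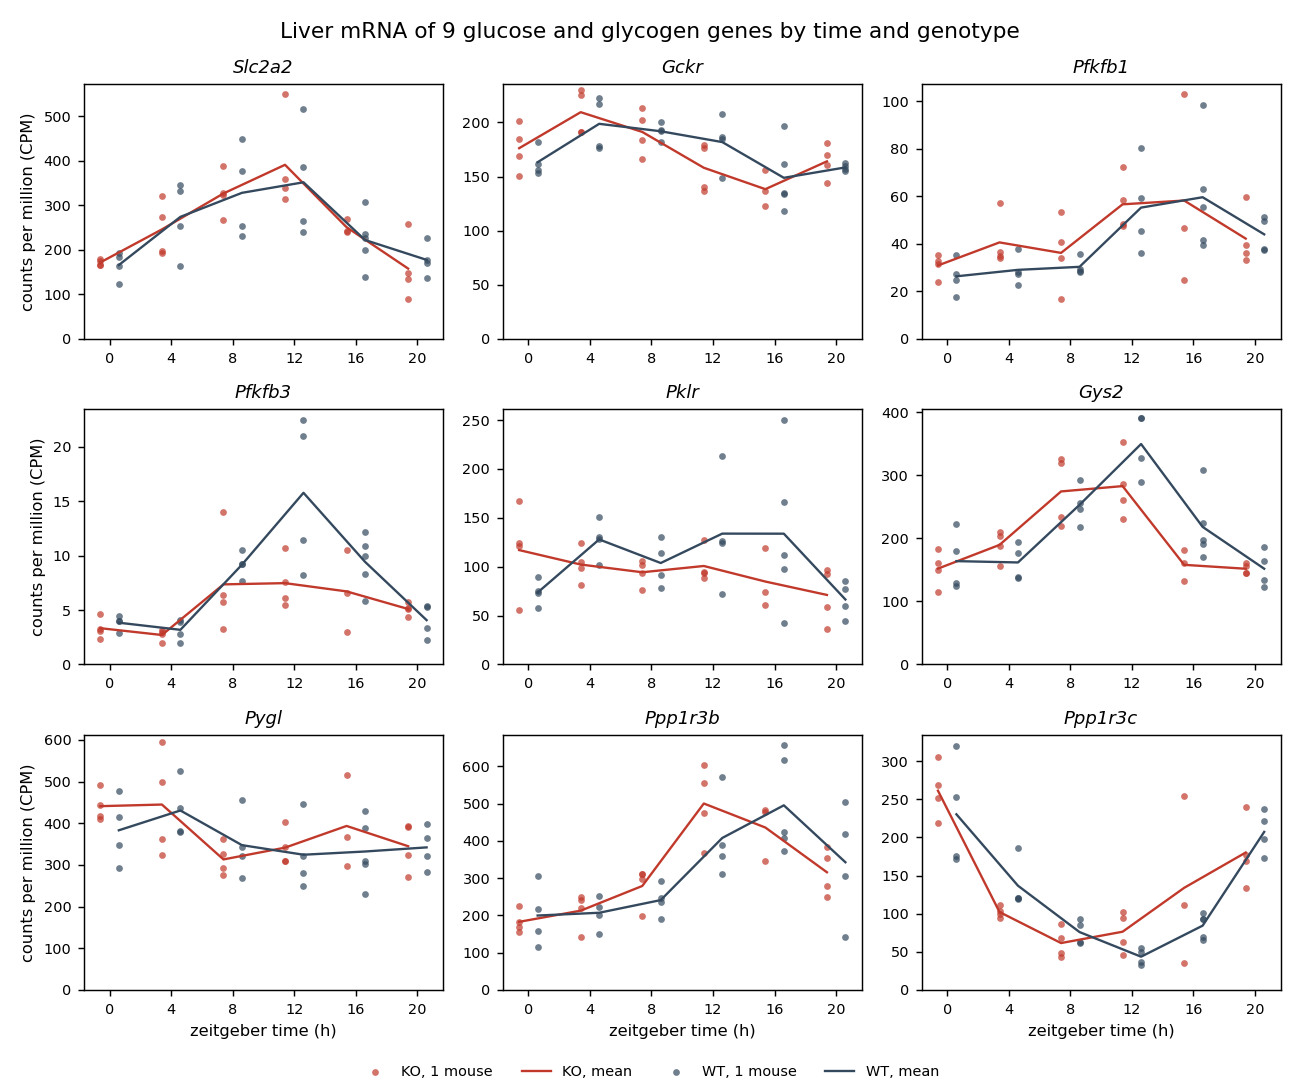
CPM (vertical axis, linear, from 0) of each of the 9 genes by zeitgeber time in h (horizontal axis). Points are single mice, KO in red and WT in dark blue with KO drawn slightly to the left, and lines join the group means (n = 4 per group, 3 KO and 5 WT at ZT16). Slc2a2 and Gys2 are highest at ZT8 to ZT12, Ppp1r3b at ZT12 to ZT16 and Ppp1r3c at ZT0 in both genotypes.

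The genes that passed did not peak together. By least squares on log2 CPM, the fitted peak of Gckr came first, at ZT4.26 (SE 0.70 h) in KO and ZT6.38 (SE 0.91 h) in WT livers. Slc2a2 and Gys2 followed, then Pfkfb3 and Ppp1r3b, and Ppp1r3c came last, at ZT22.2 (SE 0.70 h) in KO and ZT23.3 (SE 0.31 h) in WT livers. Not all neighbours in this order were apart by more than their error. Gys2 minus Slc2a2 was -0.53 h (SE 0.75 h) in KO and 1.79 h (SE 0.80 h) in WT livers, Pfkfb3 minus Gys2 was 3.85 h (SE 0.96 h) in KO and 1.01 h (SE 0.68 h) in WT livers, and Ppp1r3b minus Pfkfb3 was 0.58 h (SE 1.17 h) in KO and 2.55 h (SE 0.79 h) in WT livers. The amplitude, which is the distance from the fitted mean to the peak on the log2 scale, was 0.26 (SE 0.05) in KO and 0.21 (SE 0.05) in WT livers for Gckr, the smallest among the 6 genes called in both genotypes. It was 0.98 (SE 0.17) in KO and 1.17 (SE 0.10) in WT livers for Ppp1r3c, the largest among them.

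**Figure D2:**
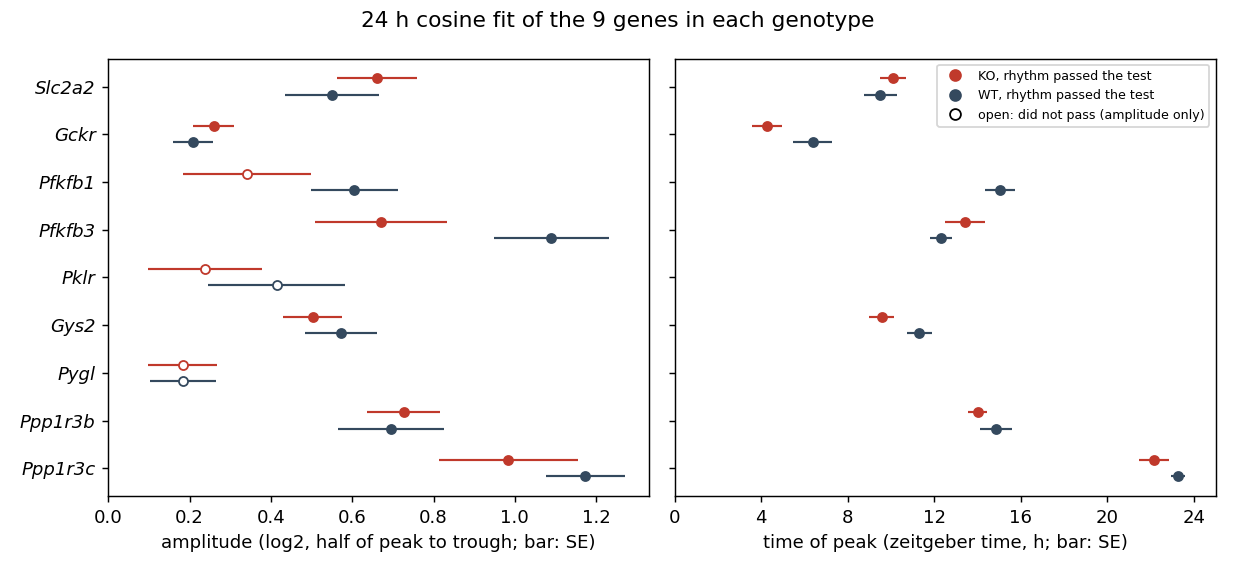
Fitted amplitude (left, log2) and time of peak (right, zeitgeber time in h) of the 9 genes, with bars of 1 SE, KO in red above WT in dark blue. Filled points passed the rhythm test, and the open points of Pfkfb1 in KO and of Pklr and Pygl in both genotypes did not, so their peak times are not drawn. Ppp1r3c peaks at ZT22.2 in KO and ZT23.3 in WT livers, and the other drawn peaks lie between ZT4.26 and ZT15.05.

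Slc2a2 (mm9 chromosome 3, 28596825 to 28627278) encodes GLUT2, the transporter that carries glucose across the hepatocyte membrane in both directions. In KO livers it stood at 360, 339, 315 and 550 CPM at ZT12 and at 90.6, 258, 147 and 136 CPM at ZT20. In WT livers it stood at 515, 240.0, 265 and 386 CPM at ZT12 and at 171, 177, 225 and 137 CPM at ZT20. Every ZT12 liver was above every ZT20 liver within each genotype. The times set side by side here, and below for Gckr, Gys2 and Ppp1r3b, were picked as high and low in these same data. The share of all genes tested without overlap between such times was not counted. The fitted peak was at ZT10.1 (SE 0.60 h) in KO and ZT9.51 (SE 0.77 h) in WT livers, with a peak 2.5-fold over the trough in KO and 2.14-fold in WT livers (rhythm adjusted p = 0.000112 in KO and 0.000472 in WT, edgeR).

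Gckr (mm9 chromosome 5, 31599954 to 31629673) encodes a regulatory protein of the hepatocyte nucleus that restrains the use of glucose when glucose is low. Its swing was small: at ZT4, the highest time, it was at 225, 192, 191 and 230.2 CPM in KO and at 217, 178, 223 and 177 CPM in WT livers. At ZT16, the lowest, it was at 156, 123 and 136 CPM in KO and at 162, 134, 135, 196 and 118 CPM in WT livers. The ZT4 and ZT16 livers did not overlap in KO, and 1 WT liver at ZT16 lay within the ZT4 range. The rhythm passed in KO (adjusted p = 0.00398) and in WT livers (adjusted p = 0.0153, edgeR), and in WT it did not pass a test of any difference among the 6 times (adjusted p = 0.108).

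Pfkfb1 (mm9 chromosome X, 147022772 to 147078421) and Pfkfb3 (mm9 chromosome 2, 11393057 to 11423728) encode bifunctional enzymes that make and remove the fructose bisphosphate that activates phosphofructokinase and so sets the pace of glycolysis. Pfkfb1 is the form long known from liver, and Pfkfb3 is a form found in many tissues that is induced in proliferating and stimulated cells. One end of Pfkfb1 overlaps the gene Apex2, and the counts are labelled as those of the sense strand. Pfkfb1 had group means between 30.9 CPM at ZT0 and 58.2 CPM at ZT16 in KO livers, and between 26.3 CPM at ZT0 and 59.6 CPM at ZT16 in WT livers. Its cosine passed in WT (adjusted p = 0.000909, peak ZT15.05, SE 0.70 h) and not in KO livers (adjusted p = 0.0727, edgeR), and the difference between the fits did not pass (unadjusted p = 0.315). The 3 KO livers at ZT16 spread widely, at 24.9, 103 and 46.6 CPM. The KO rhythm of Pfkfb1 passed when KO replicate 2 at ZT4, KO replicate 4 at ZT8 or KO replicate 1 at ZT16 was left out, and over all 48 fits that left out 1 library its adjusted p ran from 0.0325 to 0.242.

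Pfkfb3 was the scarcest of the 9 mRNAs, and it had a large swing in WT livers. At ZT0 it was at 4.65, 3.04, 2.37 and 3.28 CPM in KO and at 2.91, 3.99, 4.41 and 4.03 CPM in WT livers. At ZT4 it was at 1.95, 2.98, 3.12 and 2.78 CPM in KO and at 2.76, 1.99, 4.11 and 3.88 CPM in WT livers. Both genotypes were low at these times and overlapped. At ZT8 it was at 6.39, 3.24, 5.79 and 14.03 CPM in KO and at 9.23, 10.51, 7.68 and 9.27 CPM in WT livers. At ZT12 it was at 10.7, 5.50, 6.13 and 7.58 CPM in KO and at 21.04, 22.5, 11.4 and 8.24 CPM in WT livers. The highest WT livers of the whole day were here, and the KO and WT ranges overlapped through the lowest WT and the highest KO liver. At ZT16 it was at 6.61, 10.52 and 3.02 CPM in KO and at 10.9, 5.86, 9.93, 12.1 and 8.31 CPM in WT livers, and at ZT20 at 5.131, 5.71, 5.17 and 4.38 CPM in KO and at 5.41, 3.36, 5.24 and 2.29 CPM in WT livers. The amplitude was 0.67 (SE 0.16) in KO and 1.09 (SE 0.14) in WT livers, a difference of -0.42 (SE 0.22), and the rhythm passed in both (adjusted p = 0.00414 in KO and 1.03e-06 in WT, edgeR). The peaks at ZT13.4 (SE 0.92 h) in KO and ZT12.3 (SE 0.49 h) in WT livers differed by 1.11 h (SE 1.04 h).

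Pklr (mm9 chromosome 3, 88940064 to 88950706) encodes the pyruvate kinase of liver and red cells, the enzyme of the last step of glycolysis. Livers of a group spread widely. In KO livers the group means ran from 71.1 CPM at ZT20 to 117 CPM at ZT0, and in WT livers from 66.5 CPM at ZT20 to 134 CPM at ZT12 and at ZT16. At ZT16 the 5 WT livers stood at 251, 42.1, 112, 97.3 and 167 CPM, a range that held all 3 KO livers (119, 61.3 and 74.1 CPM). The cosine did not pass in KO (adjusted p = 0.563) or in WT livers (adjusted p = 0.102, edgeR). By the longest transcript of each gene, Pklr has the highest GC content of the 9, 54.2%. The WT rhythm of Pklr passed with the library's GC slope as a covariate (adjusted p = 0.00959, edgeR). Over all genes tested, that covariate moved the count of WT rhythms from 2228 to 4053. The part of the GC content of Pklr in its call was not tested.

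Gys2 (mm9 chromosome 6, 142371133 to 142421629), the liver glycogen synthase, which builds glycogen chains from UDP-glucose, was highest around ZT8 to ZT12. At ZT12 it was at 287, 231, 260.3 and 353 CPM in KO and at 390.1, 290, 391 and 327 CPM in WT livers. At ZT20 it was at 145, 146, 161 and 156 CPM in KO and at 123, 186, 164 and 134 CPM in WT livers. Within each genotype every ZT12 liver lay above every ZT20 liver. The fitted peak was at ZT9.57 (SE 0.58 h) in KO and ZT11.3 (SE 0.57 h) in WT livers, a KO minus WT difference of -1.73 h (SE 0.82 h), and the difference between the fits did not pass (unadjusted p = 0.136). The rhythm passed in KO (adjusted p = 8.16e-05) and in WT livers (adjusted p = 6.9e-06, edgeR), and the cosine took up 70.3% of the variance of log2 CPM in KO and 65.6% in WT livers.

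Pygl (mm9 chromosome 12, 71291798 to 71332475), the liver glycogen phosphorylase, which releases glucose units from glycogen, had the smallest fitted amplitude of the 9 in each genotype. Its group means lay between 313 CPM at ZT8 and 445 CPM at ZT4 in KO livers, and between 325 CPM at ZT12 and 431 CPM at ZT4 in WT livers. The fitted amplitude was 0.18 in both genotypes (SE 0.08 in each), and the cosine did not pass (adjusted p = 0.229 in KO and 0.25 in WT, edgeR).

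The 2 phosphatase targeting subunits had their peaks in different parts of the day. Ppp1r3b (mm9 chromosome 8, 36438795 to 36451178) encodes the subunit known as GL, which prevails in liver. At ZT0 it was at 182, 155, 224 and 170.2 CPM in KO and at 160, 306, 116 and 218 CPM in WT livers. At ZT12 it was at 475, 605, 555 and 368 CPM in KO and at 359, 390.2, 572 and 311 CPM in WT livers. In both genotypes all ZT12 livers were above all ZT0 livers. The peak came at ZT14.0 (SE 0.46 h) in KO and ZT14.9 (SE 0.73 h) in WT livers, and the rhythm passed in KO (adjusted p = 5.2e-05) and in WT livers (adjusted p = 1.91e-05, edgeR).

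Ppp1r3c (mm9 chromosome 19, 36806227 to 36811143) encodes the subunit known as PTG, which is made in many tissues. At ZT0, its highest time in both genotypes, it was at 306, 218, 269 and 252 CPM in KO and at 253, 172, 176 and 320.1 CPM in WT livers. At ZT4 it was at 104, 99, 94.0 and 112 CPM in KO and at 120.1, 121, 119 and 187 CPM in WT livers. All 4 KO livers were below all 4 WT livers at ZT4, the 1 case without overlap among the 54 gene-by-time comparisons, and 7.79% of all genes tested did not overlap at ZT4. At ZT8 it was at 43.8, 67.7, 48.6 and 85.9 CPM in KO and at 93.5, 63.0, 61.8 and 85.4 CPM in WT livers. At ZT12 it was at 62.9, 102, 94.8 and 45.3 CPM in KO and at 36.3, 50.2, 55.6 and 32.5 CPM in WT livers. The WT livers were at their lowest here, and 3 of 4 KO livers lay above all WT livers. At ZT16 it was at 111, 35.8 and 254 CPM in KO and at 69.0, 101, 92.8, 93.7 and 65.0 CPM in WT livers, so that the KO livers lay on both sides of the WT range. At ZT20 it was at 134, 239.8, 177 and 169 CPM in KO and at 198, 221, 173 and 237 CPM in WT livers, which overlapped. The rhythm passed in KO (adjusted p = 3.93e-06) and in WT livers (adjusted p = 5.17e-08, edgeR), and the cosine took up 62.3% of the variance in KO and 86.8% in WT livers. The peak of Ppp1r3c came 8.16 h (SE 0.90 h) after that of Ppp1r3b in KO livers and 8.41 h (SE 0.79 h) after it in WT livers.

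Of the 250 bases before a start site, taken from RefSeq on GRCm38.p6, those of Ppp1r3c and Pfkfb3 are shown. Among those of the 9 genes that could be searched, these 2 had the E-box CACGTG, the sequence bound by the Bmal1 and Clock proteins. Capitals mark the E-box, and both sequences read 5′ to 3′ on the gene's strand, which is the minus strand.
Ppp1r3c, chr19:36736605-36736854: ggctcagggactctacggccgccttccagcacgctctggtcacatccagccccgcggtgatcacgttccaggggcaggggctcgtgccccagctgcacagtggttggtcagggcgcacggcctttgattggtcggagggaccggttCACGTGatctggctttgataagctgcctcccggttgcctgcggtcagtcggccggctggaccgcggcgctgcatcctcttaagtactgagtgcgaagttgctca
Pfkfb3, chr2:11502091-11502340: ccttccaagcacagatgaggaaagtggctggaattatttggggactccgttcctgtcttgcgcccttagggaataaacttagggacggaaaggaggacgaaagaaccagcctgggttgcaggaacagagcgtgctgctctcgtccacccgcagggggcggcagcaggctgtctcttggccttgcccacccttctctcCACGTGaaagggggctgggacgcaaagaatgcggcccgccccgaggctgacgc
Windows of 300 bases, from 250 before to 50 after a start site, were searched on both strands for the E-box CACGTG, the D-box TTATGTAA or TTACGTAA, the ROR element core TAGGTCA and the cAMP response element TGACGTCA, none of which contains another, and 7 of the 9 genes had an entry. Gys2 and Ppp1r3b had no entry and were not searched. An E-box was in 7.15% of all 32851 windows, a D-box in 1.06%, a ROR core in 2.61% and a cAMP response element in 1.79%. These are shares of windows and not of genes, and some of the genes had more windows than others. Pfkfb3 had its E-box in 1 of 2 windows, and Pklr had a ROR core, read as TGACCTA, in 1 of 2 windows. The windows of Slc2a2, Gckr, Pfkfb1 and Pygl held none of the motifs. The 2 genes with the E-box peaked at different times of day, Ppp1r3c at ZT22.2 in KO and ZT23.3 in WT livers, and Pfkfb3 at ZT13.4 in KO and ZT12.3 in WT livers. A match is a description of these letters and not a measured binding site.

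None of the 9 mRNAs passed the test of a genotype difference over all times, where 1.4% of all genes tested did (191 genes, 85 higher and 106 lower in KO), and DESeq2 called none of the 9 either. At an unadjusted p under 0.05 there was 1 of the 9, and there were 2336 of all 13646 genes tested. The difference nearest to the threshold was that of Pfkfb3, which averaged 5.39 ± 2.999 CPM in KO (SD, n = 23) and 7.66 ± 5.27 CPM in WT livers (SD, n = 25). Its log2 fold change was -0.33 (SE 0.14, 95% interval -0.62 to -0.04, adjusted p = 0.234, edgeR's quasi-likelihood test with Benjamini-Hochberg adjustment). The intervals of the other 8 genes held 0. The narrowest was that of Gckr, from -0.13 to 0.10, and the widest was that of Pklr, from -0.41 to 0.16. The median log2 difference was 0.01 over the 9 genes and -0.0047 over all genes tested, and 5 genes were above 0 and 4 below.

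At single times no gene of the 9 passed either. The background was 0.0147% of all genes tested at ZT0 (2 genes), 0.0366% for ZT4 (5 genes) and 0.022% for ZT16 (3 genes), and it was 0% for each of ZT8, ZT12 and ZT20, so these tests called almost nothing in the whole table. At an unadjusted p under 0.05 there were 248 genes at ZT8, 600 at ZT12 and 251 at ZT20, and DESeq2 called 2 at ZT8, 3 at ZT12 and 0 at ZT20. The count at ZT4 was 3354 genes without KO replicate 1 of that time, whose GC slope was 0.27 where the other 3 KO libraries had -0.56, -1.03 and -0.91. None of the 9 genes was called at ZT4 without that library. The part of the GC slope in that count was not tested.

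Among the 54 gene-by-time differences, 4 had an unadjusted p under 0.05 (edgeR), 2 of them from ZT12 and 2 from ZT16. Of all 13646 genes tested, 907 came under that limit for ZT16 and 600 for ZT12. For ZT4 it was 3175 genes and for ZT0 754 genes, with none of the 9 among them. Whether 4 of 54 exceeds the share among all genes was not tested, so these 4 are not set apart from the background. Pfkfb3 at ZT12 averaged 7.48 ± 2.32 CPM in KO and 15.8 ± 7.03 CPM in WT livers (SD, n = 4 each), or -1.08 on the log2 scale (SE 0.34, edgeR adjusted p = 0.908). Ppp1r3c at ZT12 averaged 76.4 ± 26.8 CPM in KO and 43.6 ± 11.01 CPM in WT livers (SD, n = 4 each), or 0.81 on the log2 scale (SE 0.32, edgeR adjusted p = 0.908). At ZT16 the difference of Ppp1r3c was 0.67 (SE 0.32, adjusted p = 0.731, edgeR), and without KO replicate 3 it was -0.19. Gys2 at ZT16 averaged 157.9 ± 24.6 CPM in KO (SD, n = 3) and 218 ± 53.7 CPM in WT livers (SD, n = 5), or -0.47 on the log2 scale (SE 0.20, edgeR adjusted p = 0.731). Pklr was higher in KO at ZT0 by 0.67 (SE 0.34, adjusted p = 0.933) and lower at ZT16 with a log2 value of -0.66 (SE 0.36, edgeR adjusted p = 0.731), neither past the threshold. Single libraries carried part of these values: the Pklr difference was 0.44 at ZT0 without KO replicate 1 and -0.30 at ZT16 without WT replicate 1, and the Gys2 difference at ZT16 was -0.31 without WT replicate 2. Ages were not matched at ZT16. WT replicates 1 to 5 of that time were 93, 38, 105, 38 and 93 weeks old, with Pklr at 251, 42.1, 112, 97.3 and 167 CPM. The KO mice of that time were 38, 38 and 105 weeks old, with Pklr at 119, 61.3 and 74.1 CPM. Age was not a covariate in the genotype tests, and its part in these values was not tested. The interaction of genotype with time passed for none of the 9 genes (background 0.00733%, 1 gene). Its smallest p among them was that of Ppp1r3c (unadjusted p = 0.0330, adjusted p = 0.953, edgeR). Of all 13646 genes tested, 447 had an unadjusted p under 0.05 for the interaction.

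**Figure D3:**
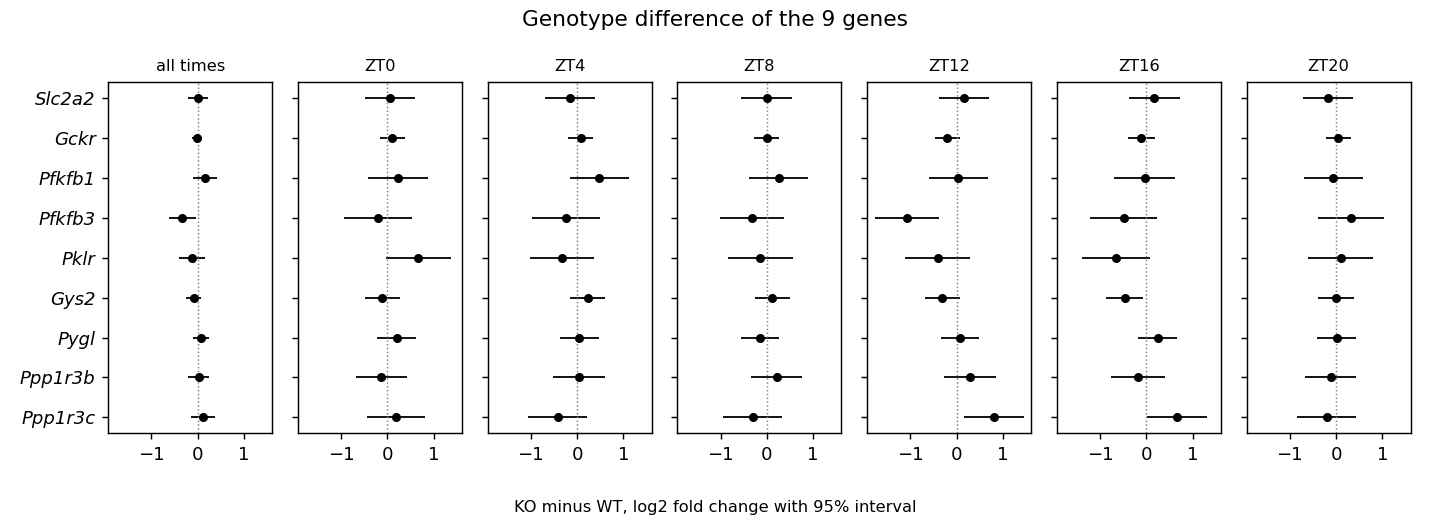
KO minus WT log2 fold change (horizontal axis) with its 95% interval for each of the 9 genes, over all times in the left panel and at each zeitgeber time in the others. The interval over all times leaves out 0 for Pfkfb3 alone (-0.62 to -0.04), and no difference passed after adjustment over all genes tested. Over all times 2336 of 13646 genes tested had an unadjusted p under 0.05.

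Levels can be set against each other only per length, here as CPM per kb of exon in the GENCODE annotation. The exons of all transcripts of a gene were merged, and the order depends on that length. It was 2657 bases for Gys2 and 6895 bases for Pygl. In CPM, Gys2 averaged 203.3 in KO and 216.4 in WT livers, below Pygl at 379.4 in KO and 359 in WT livers. Per kb the order was as follows. Gys2 was highest, at 76.5 ± 24.9 in KO and 81.4 ± 29.7 CPM per kb in WT livers (SD, n = 23 KO and 25 WT). Pygl, Ppp1r3b, Ppp1r3c, Slc2a2 and Gckr followed in that order in both genotypes, between 40.2 and 55.02 CPM per kb in KO and between 39.9 and 52.1 CPM per kb in WT livers, and no neighbours among these 6 genes differed by more than the larger of their SDs. Pklr came next, at 29.5 ± 8.81 in KO and 33.3 ± 15.3 CPM per kb in WT livers, and its step from Gckr was larger than either SD in KO but not in WT livers. Pfkfb1 was lower, at 10.8 ± 4.58 in KO and 10.3 ± 4.62 CPM per kb in WT livers, and Pfkfb3 lowest, at 0.713 ± 0.397 in KO and 1.01 ± 0.697 CPM per kb in WT livers. The steps from Pklr to Pfkfb1 and from Pfkfb1 to Pfkfb3 were larger than the SD of either gene in both genotypes.

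The 9 genes also varied together in part. Over the 12 group means of log2 CPM, Ppp1r3b and Pfkfb1 had r = 0.92, Slc2a2 and Gys2 r = 0.83, and Gys2 and Ppp1r3c r = -0.91. Between mice of the same group the same pairs had r of 0.19, 0.38 and -0.03. Among 9736 genes whose mean log2 CPM reached 2, those whose 12 group means were most like Ppp1r3c were Slc30a10 (r = 0.97), Slc16a1 (r = 0.96) and Pde9a (r = 0.96). Those most like Ppp1r3b were Pgk1 (r = 0.96), the gene of the glycolytic phosphoglycerate kinase, Tsc22d3 (r = 0.96) and Gsta3 (r = 0.95). For Gys2 they were Wipf3, Pik3r1 and Hes6 (r = 0.95, 0.94 and 0.93), for Slc2a2 Dclre1a, Sdhd and Auh (r = 0.93 for each), and for Gckr Vmac, Hnrnpd and Snapin (r = 0.97, 0.96 and 0.95). For Pfkfb1 they were Smarcd2, Fmo1 and Ppp1r3b (r = 0.95, 0.93 and 0.92), and for Pfkfb3 Dclre1b, Rhobtb1 and Zfp276 (r = 0.93, 0.92 and 0.92). For Pklr and Pygl, which had no called rhythm, the closest were Txnrd2 (r = 0.89) and Gars (r = 0.90). These r describe points that share libraries within a group and were picked as the highest of many.

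The wider pathway was described from 72 other genes of glucose uptake, glycolysis, glucose output, glycogen synthesis, glycogen breakdown, glycogen regulation and the carbohydrate response, of which 66 were tested. None of the 66 passed over all times or at a single time, and their median log2 difference over all times was -0.10, against -0.0047 over all genes tested. The largest shift of a median was that of glucose uptake and phosphorylation (8 genes tested, -0.29), then glucose output (6 genes, -0.24), and the glycogen synthesis genes had 0.03 (6 genes). In KO livers 21 of 66 had a called rhythm (31.8%, background 17%) and in WT livers 13 of 66 (19.7%, background 16.3%), with 9 genes in both, which is 42.9% of the KO and 69.2% of the WT genes. Over all genes tested, the overlap was 1308 genes, 56.3% of those called in KO and 58.7% of those called in WT livers. None of the 66 passed the test of a difference in rhythm, so the counts of 21 and 13 are not shown to differ.

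By list, rhythms were called for 3 in KO and 1 in WT of the 6 glycogen synthesis genes, for 3 in KO and 3 in WT of the 9 glycogen breakdown genes, and for 4 in KO and 1 in WT of the 13 glycogen regulators. They were called for 6 in KO and 5 in WT of the 19 glycolysis genes, 2 in KO and 1 in WT of the 6 glucose output genes, 1 in KO and 1 in WT of the 8 genes of glucose uptake and phosphorylation, and 2 in KO and 1 in WT of the 5 carbohydrate response factors. Stbd1, a glycogen-binding protein tied to lysosomal breakdown of glycogen, peaked at ZT9.13 (SE 0.63 h) in KO and ZT11.2 (SE 0.53 h) in WT livers. Phka2, the liver regulatory subunit of phosphorylase kinase, peaked at ZT7.43 (SE 0.73 h) in KO and ZT7.69 (SE 0.38 h) in WT livers. Epm2a, the gene of the glycogen phosphatase laforin, peaked at ZT6.36 (SE 0.79 h) in KO and ZT6.03 (SE 0.81 h) in WT livers. These 3 rhythms passed in both genotypes.

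G6pc, the catalytic subunit that makes free glucose for release, was far higher than any of the 9 genes per length, at 269.5 ± 145.5 in KO and 330.1 ± 148.6 CPM per kb in WT livers (SD, n = 23 KO and 25 WT). Its peak came at ZT19.5 (SE 0.98 h) in KO and ZT22.4 (SE 0.66 h) in WT livers (adjusted p = 0.00981 in KO and 0.00783 in WT, edgeR). Gys1, the muscle form of glycogen synthase, stood at 0.663 ± 0.306 in KO and 0.748 ± 0.288 CPM per kb in WT livers, and had no called rhythm. Mlxipl, which encodes the glucose-sensing factor ChREBP, averaged 288 ± 98.8 CPM in KO and 273 ± 78.6 CPM in WT livers and had no called rhythm either.

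Of the listed genes with the smallest p for rhythm, 5 passed in 1 genotype only. None of the 5 passed the test of a difference in rhythm, so they are not shown to be rhythmic in 1 genotype alone. In KO livers these included Ppp1ca, a catalytic subunit of protein phosphatase 1 (KO adjusted p = 0.00205), and Mlxip, which encodes MondoA, a relative of ChREBP (KO adjusted p = 0.000481). In WT livers they were Pfkfb2, another bifunctional enzyme gene (adjusted p = 0.00244), and Arrdc4, a glucose-induced arrestin (adjusted p = 0.000606, edgeR). The fitted peaks in KO and WT livers were ZT0.52 and ZT0.74 for Ppp1ca, and ZT16.6 and ZT17.4 for Mlxip. They were ZT13.7 and ZT13.5 for Pfkfb2, and ZT0.42 and ZT2.33 for Arrdc4. Ppp1r3g, which encodes a further targeting subunit, had a KO rhythm (edgeR adjusted p = 2.98e-06) that rested on KO replicate 2 at ZT16. The 3 KO livers at ZT16 stood at 8.69, 304 and 1.80 CPM, and without that replicate the edgeR adjusted p was 0.0767. The fitted amplitude of Ppp1r3g was 1.64 (SE 0.53) in KO and 1.12 (SE 0.23) in WT livers, with peaks at ZT15.8 and ZT16.2. Among cell type markers, rhythms were called for 8 of 8 neutrophil genes in KO and 0 of 8 in WT livers, and for 6 of 7 sinusoidal endothelium genes in KO and 2 of 7 in WT livers (background 17% in KO and 16.3% in WT), and none of these genes passed the test of a difference in rhythm. The neutrophil sum had a median of 7.18 CPM in KO and 8.06 CPM in WT livers and reached 591 CPM in KO and 474 CPM in WT livers. The KO maximum was that of KO replicate 1 at ZT20, and the next KO liver had 30.8 CPM. Without that library no neutrophil gene had a called rhythm in KO (0 of 8), the pathway count in KO was 16, and the same 6 of the 9 genes passed. In WT 7 of 8 neutrophil genes passed without WT replicate 4 at ZT12, so both counts of this list turned on 1 library. The endothelial sum ranged from 119 to 288 CPM in KO and from 132 to 274 CPM in WT livers. Over the fits without 1 library the endothelial count was 4 to 6 in KO and 1 to 2 in WT livers, and the part of these cells in the KO count of the pathway was not tested.

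**Figure D4:**
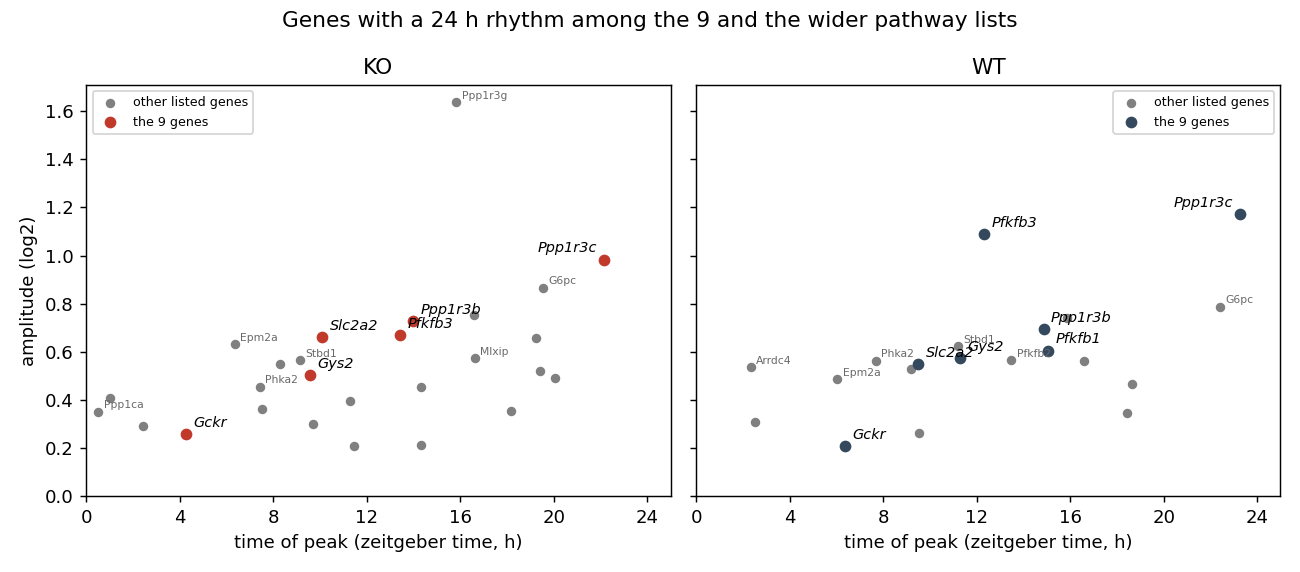
Fitted amplitude (vertical axis, log2) against time of peak (horizontal axis, zeitgeber time in h) for genes whose 24 h rhythm passed the test, KO in the left panel and WT in the right. Coloured points are those of the 9 genes that passed (6 in KO, 7 in WT), and grey points are the other genes of the pathway lists (21 in KO, 13 in WT), with names for those described in the text. Ppp1r3c lies at the right edge of both panels, and Ppp1r3g in KO rests on 1 mouse.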

How the data were processed

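RNA of 48 livers was measured by polyA RNA-seq with a stranded kit, per the labels' protocols. CASAVA, STAR 2.4.1d and the mm9 build are named in the submitters' processing notes. How genes were counted, on which annotation, and whether depth was equalised is not given in the sources used here. The authors deposited whole-number counts per gene, labelled as sense strand. The Alb row was not made of plain counts and was dropped from totals and tests once its values had been seen. Counts were analysed with edgeR 4.0.16 in R 4.3.3: filterByExpr, TMM, and a quasi-likelihood model with 12 group means (KO minus WT as the mean over 6 times and at each time, and the interaction), then a model with a 24 h cosine per genotype. p-values were adjusted by Benjamini-Hochberg over 13646 genes, threshold 0.05. CPM used scaled library sizes; amplitudes and peaks came from least squares on log2 CPM (prior count 2). Exon length and GC content came from GENCODE vM21, promoters from RefSeq on GRCm38.p6, and neither build's coordinates were mixed with mm9.

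The 9 genes and the pathway lists were chosen with earlier results of these data known. All 9 were named in every comparison. Of the lists, the called genes of smallest p were named, up to 4 per genotype comparison and up to 6 per rhythm, with G6pc, Gys1 and Mlxipl in any case; some genes this rule names are not reported here. Nothing in the labels says how mice relate, so p-values measure the spread between these mice. Alternatives were RLE scaling, no filter, body weight, GC slope, age, a replicate block, DESeq2 1.42.0, a test of any difference among times, Alb kept, and leaving out each library (for the cell type markers, added after the data were seen). Age was run for the rhythm within each genotype only. The replicate block was run for the difference over all times and the interaction only. The tests were tried on simulated counts.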

Additional observations from a re-analysis of the deposited data

Results flagged for a closer look

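In 5 of 99 sets of mice (a gene in a group of 4 or 5), 1 mouse stood apart from the rest by Dixon's ratio at its 95% critical value, and chance alone marks about 1 in 20. Pfkfb1 was at 56.99 CPM in KO replicate 2 at ZT4, where the other 3 KO mice lay between 34.07 and 36.4 CPM. It was at 35.6 CPM in WT replicate 2 at ZT8, where the others lay between 27.96 and 29.2 CPM. Pklr was at 127.3 CPM in KO replicate 2 at ZT12, with the others between 88.1 and 94.3 CPM. Ppp1r3b was at 198.1 CPM in KO replicate 4 at ZT8, below the others at 297 to 311 CPM. Ppp1r3c was at 186.5 CPM in WT replicate 4 at ZT4, with the others between 119 and 121 CPM, and all 4 of these WT mice were above the 4 KO mice of that time.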

How the results depend on the processing

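The rhythm calls of the 9 genes changed under the alternatives run for Pfkfb1, Gckr and Pklr only: the KO count was 6 or 7 over the 48 fits without 1 library (Pfkfb1), and in WT Gckr lost its call in the test of any difference among times (adjusted p = 0.108) while Pklr gained one with GC slope (adjusted p = 0.00959). Counts over all genes moved more. The count over all times was 122 without the filter, 38 with body weight, 127 with the replicate block and 356 by DESeq2. At ZT0 it was 5 with RLE scaling, 10 without the filter, 1 with weight and 10 by DESeq2, at ZT4 2, 1 and 192 for the last 3, at ZT12 1, 1 and 3, at ZT16 0, 0 and 17, and at ZT8 2 by DESeq2. The pathway genes had 1 call by DESeq2 at ZT4 and 1 at ZT16. The interaction had 4 with GC slope, 0 with the replicate block and 7 by DESeq2, and the rhythm difference 3 with GC slope. The test of any difference among times called 1328 genes in KO (13 pathway genes) and 1167 in WT (8), and GC slope, added after the data were seen, 4053 in WT. The causes were not tested.

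Without 1 library each, the counts ran from 99 to 484 over all times (pathway 0 to 1), 0 to 9 at ZT0, 0 to 3354 at ZT4 (pathway 0 to 13), 0 to 1 at ZT8, 0 to 2 at ZT12, 0 to 25 at ZT16 (pathway 0 to 1), 0 to 3 for the interaction, 1628 to 3691 for the KO rhythm and 1 to 2 for the rhythm difference. Some uncalled differences turned sign. Over all times Slc2a2 was -0.0349 with weight, -0.0383 with GC slope and -0.0082 with the replicate block, Gckr 0.011 with weight, Pklr 0.0091 with GC slope, and Ppp1r3b -0.0076 with weight and -0.022 with GC slope. Without 1 library Slc2a2 ran from -0.0491 to 0.0487, Gckr from -0.0277 to 0.0073, Ppp1r3b from -0.0241 to 0.0658, Ppp1r3c from -0.0206 to 0.1949, and Ppp1r3c at ZT16 from -0.1945 to 1.1237. Of the 54 single-time differences, 4 turned sign under another setting and 22 without 1 library, and none was called under any. Counting error is relatively largest for Pfkfb3, which has the fewest counts of the 9 genes in libraries of about 12.9e6. Same-numbered KO and WT mice shared an age in 22 of 23 pairs, but the labels state no pairing. The correlations of their deviations ran from -0.49 to 0.6 (14 of 23 over 0.1). Of 46 mice, 22 correlated best with their own number among the 3 to 5 mice of the other genotype at that time. The 46 mice are both sides of the same 23 pairs, and this count was not tested against chance. Since not every pair was over 0.1, the replicate block is given as an alternative, without deciding whether the mice were paired.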
